A study of Mus musculus with 8 samples.

Results

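The let-7 and miR-98 family was followed in the pubertal mouse mammary gland. Its members were the 9 array entries mmu-let-7a, mmu-let-7b, mmu-let-7c, mmu-let-7d, mmu-let-7e, mmu-let-7f, mmu-let-7g, mmu-let-7i and mmu-miR-98, chosen by name out of 611 mouse miRNAs on the array. The rule used no measured value, but earlier results of these data were known when it was set. All 9 were flagged as detected on all 8 arrays. Of the 8 arrays, 3 carried RNA of terminal end buds (TEBs), the invading tips of growing ducts, 2 that of mature ducts and 3 that of distal stroma. The tissue was cut out under a microscope from the mammary glands of female FVB/n mice, 5 weeks old, that carry a β-actin–GFP reporter. The reporter makes cells of the whole animal fluoresce, and no group received a treatment. The labels number the arrays of each tissue but do not say that they come from separate animals, so the p-values measure the spread between these samples, which may be technical.

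let-7 was among the first miRNAs described, as a switch of developmental timing in worms. In mammals its members silence messenger RNAs of growth and progenitor genes such as those for RAS proteins, MYC, HMGA2 and LIN28. LIN28 in turn blocks the maturation of let-7 precursors, and let-7 levels are known to rise as progenitor cells differentiate. TEBs are rich in proliferating progenitor cells and mature ducts in differentiated luminal and myoepithelial cells, so the comparison of TEBs with ducts asks whether the family follows that step, and the comparisons with stroma ask how it divides between epithelium and its surroundings.

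The mature strands are printed to show how little separates the members that the array has to tell apart. They were read from the RefSeq table of build GRCm38.p6, 5′ to 3′, and the capitals mark the seed, bases 2 to 8, which pairs with target messages.
let-7a: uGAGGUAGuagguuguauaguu
let-7b: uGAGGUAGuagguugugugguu
let-7c: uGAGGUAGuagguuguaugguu
let-7d: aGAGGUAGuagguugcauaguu
let-7e: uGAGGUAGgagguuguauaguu
let-7f: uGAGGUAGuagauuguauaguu
let-7g: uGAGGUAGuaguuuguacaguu
let-7i: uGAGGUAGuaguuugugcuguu
miR-98: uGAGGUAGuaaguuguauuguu

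All 9 strands are 22 bases long and carry 1 seed, GAGGUAG, so they form a single seed group. The seed is shared by 11 of the 1679 mature names in the table, the other 2 being mmu-let-7k and mmu-miR-1961, which were not followed here. With positions counted from 1 at the 5′ end and the let-7a base given first, let-7c differs from let-7a by A19G, let-7e by U9G and let-7f by G12A. let-7b carries A17G and A19G, let-7d U1A and U16C, let-7g G12U and U18C, and miR-98 G11A and A19U. let-7i is the farthest from let-7a among the 9, with G12U, A17G, U18C and A19U. Cross-hybridisation between members this close would make their signals alike, and its part in the values was not tested.

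The 9 mature strands come from 12 hairpins on 7 chromosomes of GRCm38.p6, several of them in clusters. let-7a-1 (chr13:48538179-48538272), let-7f-1 (chr13:48537829-48537917) and let-7d (chr13:48536012-48536114) lie together on the minus strand. let-7c-2 (chr15:85706603-85706697) and let-7b (chr15:85707319-85707403) lie 621 bases apart on the plus strand, within the long non-coding gene Lncppara. let-7f-2 (chrX:151912346-151912428) and miR-98 (chrX:151913214-151913321) lie 785 bases apart within the span of Huwe1. The remaining hairpins are let-7a-2 (chr9:41536716-41536811, within Mir100hg), let-7c-1 (chr16:77599657-77599750), let-7e (chr17:17830352-17830444, within Spaca6), let-7g (chr9:106178840-106178927, within Wdr82) and let-7i (chr10:122985640-122985724). The mature strands of let-7a, let-7c and let-7f each have a pair of source hairpins, which the array cannot separate.

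The deposited values are total signal intensities of each miRNA with background subtracted and without scaling between arrays. The summed signal of the 611 mouse miRNAs was 57154.5 to 76977.4 units in stroma, 66614.7 to 78246.7 units in TEBs and higher in ducts, at 90548.2 and 97313.7 units, and the number of arrays limits the precision. Here each array was brought to a common 75th percentile over the 108 miRNAs that all 8 arrays detected, and a scaled signal is in those array units. The tests covered 167 miRNAs, those that 1 tissue or more detected on each of its arrays. Their log2 scaled signals correlated with r of 0.956 to 0.987 between arrays of 1 tissue and with r of 0.645 to 0.926 between tissues. The labelled tissues were checked by their markers. The 6 epithelial markers (miR-200a, miR-200b, miR-200c, miR-141, miR-429 and miR-205) were undetected throughout stroma and detected throughout ducts and TEBs, with summed scaled signals of 2076.6 to 2316.1 and 1948.3 to 2056.5 units. Fibroblast markers were present throughout, with all 3 detected on every array and summed signals of 2381.8 to 2895.0 units in stroma, 3322.4 to 3422.9 in ducts and 3099.8 to 3718.5 in TEBs. The dissected ducts and TEBs therefore also held RNA with mesenchymal miRNAs. In such bulk tissue, fewer cells of a type and less RNA per cell cannot be told apart.

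The family made up a nearly constant part of the signal. Its 9 members together held 29.6%, 29.0% and 32.2% of the summed signal of all mouse miRNAs on the stroma arrays, 31.0% and 30.9% on the duct arrays, and 31.3%, 29.2% and 28.9% on the TEB arrays. The tissues overlapped, with means of 30.3% ± 1.69 (SD, n = 3) for stroma, 29.8% ± 1.28 (SD, n = 3) for TEBs and 30.9% ± 0.0588 (SD, n = 2) for ducts. The duct and TEB arrays together differed from stroma by -0.0151 percentage points, with p = 0.982 in a two-sided exact permutation test of 5 arrays against 3, whose smallest p is 0.0179. These shares lie within an array and do not change with a factor that multiplies the whole array. A member's log2 signal spanned a median of 0.40 over the 8 arrays after scaling, from 0.18 for let-7c to 0.85 for miR-98, against a median of 0.87 over the 108 miRNAs detected on all arrays. The 9 members are among those 108, which also set the scaling, and spans at like brightness were not compared. The deposited error of the signal was 8.3% to 9.7% for the 8 let-7 members and 9.18% to 21.1% for miR-98, the dimmest, at 43.9 to 70.5 units before scaling.

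let-7g had the widest gap between tissues. Its scaled signal was 1716.9, 1832.5 and 1723.1 units on the stroma arrays, 1206.1 and 1355.5 on the duct arrays and 1081.8, 1278.6 and 1197.6 on the TEB arrays. Every duct and TEB array lay below every stroma array, while ducts and TEBs overlapped. let-7f followed the same order, with 3190.6, 3382.7 and 3892.5 units in stroma, 2647.2 and 2614.2 in ducts and 2674.3, 2684.3 and 2610.8 in TEBs. All 5 of its epithelial arrays lay below stroma and close together.

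let-7a and let-7d, which share the chromosome 13 cluster with let-7f, moved less. The signals of let-7a and let-7f also include their hairpins on chromosomes 9 and X. For let-7a the signals were 3592.1, 3767.4 and 4099.1 units in stroma, 3251.8 and 3347.1 in ducts and 3297.0, 3214.4 and 2944.6 in TEBs. For let-7d they were 1741.7, 1774.6 and 1567.1 units in stroma, 1446.8 and 1469.7 in ducts and 1355.2, 1417.5 and 1344.9 in TEBs. Stroma was the highest tissue for both, without overlap with the others.

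let-7b and let-7c, which share the chromosome 15 cluster, were nearly level. The let-7c signal also includes its hairpin on chromosome 16. let-7b gave 5399.4, 5441.4 and 5464.6 units in stroma, 5701.6 and 5449.6 in ducts and 4872.7, 4961.2 and 4720.3 in TEBs, so that only the TEB arrays stood below the rest. let-7c gave 4891.4, 5038.3 and 5525.8 units in stroma, 5422.8 and 5316.1 in ducts and 5100.2, 5140.9 and 4968.6 in TEBs. The TEB arrays of let-7c lay within the range of the stroma arrays, and so did its duct arrays.

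let-7e, let-7i and miR-98 showed no separation of stroma from epithelium. let-7e had 753.7, 748.6 and 849.2 units in stroma, 779.2 and 751.3 in ducts and 827.9, 739.7 and 693.6 in TEBs. let-7i had 1955.8, 1877.5 and 1831.1 units in stroma, 2111.1 and 2082.3 in ducts and 1705.1, 2124.1 and 2050.1 in TEBs, with TEB 1 below all the others. miR-98 had 63.2, 52.7 and 71.6 units in stroma, 39.6 and 53.6 in ducts and 69.2, 66.7 and 56.0 in TEBs, with overlap between stroma and both epithelial tissues.

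**Figure D1:**
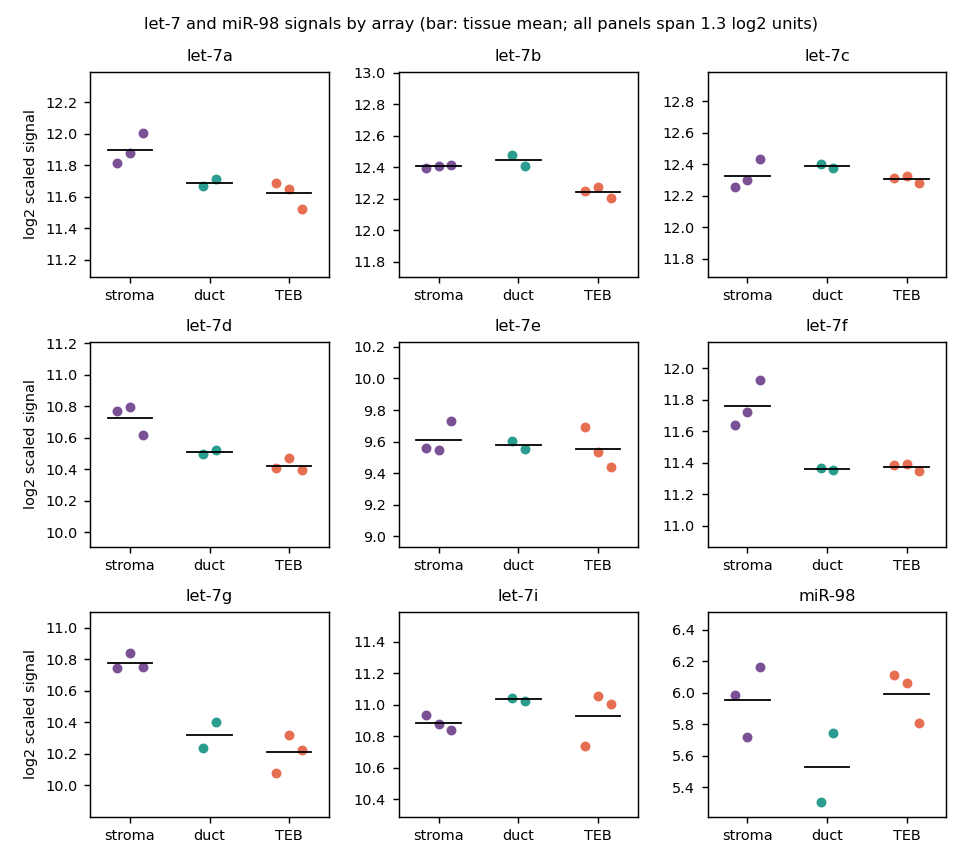
Log2 scaled signal of the 9 family members, with 1 point per array (stroma 3, ducts 2, TEBs 3), a bar at each tissue mean and axes of equal span, so that distances can be compared between panels. The 5 duct and TEB points of let-7a, let-7d, let-7f and let-7g lie below all stroma points, and those of the other 5 members overlap stroma. The share of all miRNAs separated in this way was not computed. In limma, 44.3% of the 167 tested miRNAs were called lower in TEBs than in stroma, so the separation is no result about the family.

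No member passed the test between TEBs and ducts. In limma on the log2 scaled signals, 0 of 9 passed an adjusted p under 0.05 in either direction, where 11.4% of the 167 tested miRNAs were called higher and 13.2% lower in TEBs, and 1 of the 9, let-7b, had an unadjusted p under 0.05. The log2 differences of the members ran from -0.20 to 0.47 with a median of -0.08, against a median of -0.10 over all tested miRNAs. let-7b had -0.20 (SE 0.08, limma adjusted p = 0.0931), the lowest of the 9. The TEB and duct arrays did not overlap for let-7b, let-7c, let-7d and miR-98. The share of all tested miRNAs without such overlap was not computed, so this is no result about the family. miR-98 had 0.47 (SE 0.19, limma adjusted p = 0.101), the highest. For the other 7, from let-7g at -0.11 to let-7f at 0.01, the 95% intervals lay between -0.39 and 0.27, which does not show that the tissues are alike and holds for the main scaling alone. With the 75th percentile of all 611 mouse miRNAs the 9 differences ran from 0.35 to 1.02, and without scaling from -0.57 to 0.10. Without duct 1 the members' median was -0.30 and miR-98 had 0.04. One or 2 members, always lower in TEBs, passed in 5 of the alternative settings and without TEB 1.

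Against stroma, 4 members were lower in TEBs and none was higher. They were let-7g at -0.57 (SE 0.10, limma adjusted p = 0.00337), let-7f at -0.39 (SE 0.10, limma adjusted p = 0.0132), let-7d at -0.30 (SE 0.08, limma adjusted p = 0.0185) and let-7a at -0.28 (SE 0.09, limma adjusted p = 0.0335). This is 44.4% of the members, beside 44.3% of the tested miRNAs called lower and 20.4% called higher in TEBs, and the members' median of -0.16 lay above the median of -0.28 over all tested miRNAs, so the count is at the background and is no result about the family. let-7b had -0.16 (SE 0.07, limma adjusted p = 0.0866), and let-7c, let-7e, let-7i and miR-98 had differences of -0.06 to 0.05 with limma adjusted p-values of 0.638 to 0.857. let-7g passed without any 1 array, while let-7a was lost whichever of the 8 arrays was left out (limma adjusted p of 0.0507 to 0.123), let-7d without stroma 1, stroma 2 or TEB 1 (0.0705, 0.054 and 0.0521) and let-7f without TEB 1 (0.0602). The calls left were 2 without stroma 1, 2 without stroma 2 and 1 without TEB 1.

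In ducts, let-7g and let-7f were lower than in stroma, by the main scaling. let-7g changed by -0.46 (SE 0.11, limma adjusted p = 0.0277) and let-7f by -0.40 (SE 0.11, limma adjusted p = 0.0405), 2 of 9 members, where 12% of the tested miRNAs were called lower and 9.58% higher in ducts. let-7d and let-7a had -0.21 each (limma adjusted p = 0.163 and 0.209), miR-98 -0.43 (SE 0.19, limma adjusted p = 0.175), and let-7i 0.15 (SE 0.12, limma adjusted p = 0.437). The medians were -0.21 over the members and -0.09 over all tested miRNAs. The let-7f call remained only without stroma 3 among the 8 fits that left out 1 array, and the let-7g call only without stroma 3 or TEB 2. Without duct 1 the values were -0.16 for let-7g and -0.20 for let-7f, and without TEB 1 they were -0.21 and -0.16.

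**Figure D2:**
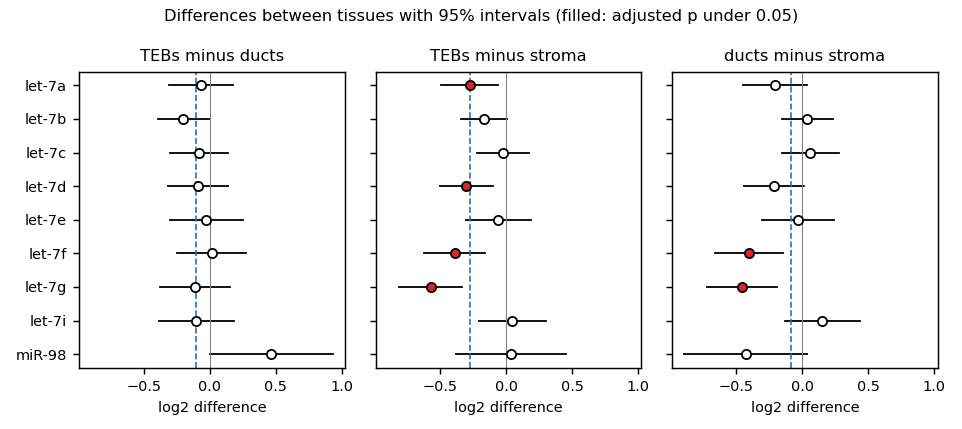
Log2 difference of scaled signal between tissues for each member, with its 95% interval from limma, for TEBs minus ducts, TEBs minus stroma and ducts minus stroma. Filled points passed an adjusted p under 0.05, the solid line marks 0 and the dashed line the median of all 167 tested miRNAs; 4 points are filled against stroma in TEBs, 2 in ducts, and 0 between TEBs and ducts.

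The sign of most of these differences depended on how the arrays were scaled, since a factor applied to an array moves all its members together. Between TEBs and stroma the median difference over all tested miRNAs was -0.28 with the main scaling, 0.12 with the 75th percentile of all 611 mouse miRNAs, -0.07 after quantile normalization, -0.03 without scaling, 0.21 with the median of the detected miRNAs and -0.02 in the authors' own value table. let-7a went from -0.28 to 0.12, 0.00, -0.03, 0.21 and -0.23 in the same order, and let-7f from -0.39 to 0.0045, 0.11, -0.14, 0.10 and -0.02. let-7g kept its sign in all 6, with -0.57, -0.18, -0.29, -0.32, -0.09 and -0.32. Between ducts and stroma let-7g was -0.46 with the main scaling and -0.62, -0.24, 0.15, -0.12 and -0.22 in the others, so that its direction there turned without scaling. Among all calls between TEBs and stroma, 31.5% were higher in TEBs with the main scaling and 57.6%, 40.6%, 50%, 62.1% and 41.7% in the others. The corresponding shares were 46.3%, 80%, 71.4%, 16%, 60.6% and 64% between TEBs and ducts, and 44.4%, 57.9%, 47.2%, 92.9%, 81.8% and 54.1% between ducts and stroma.

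**Figure D3:**
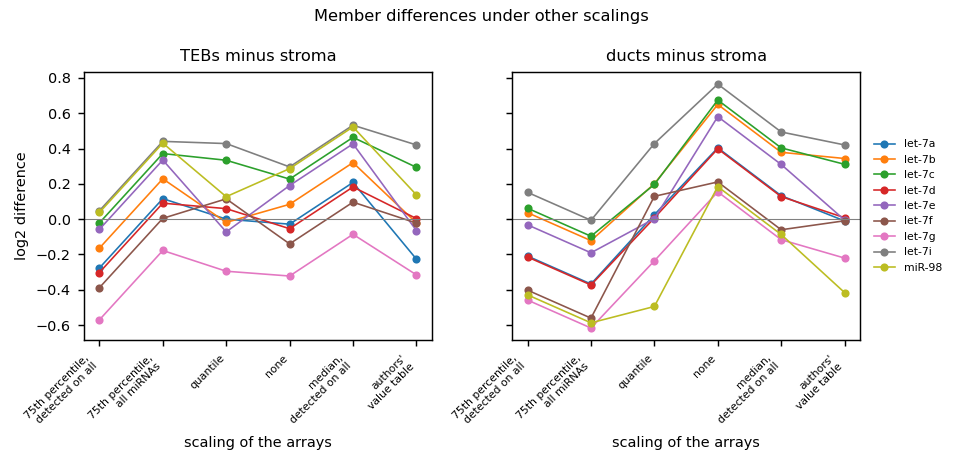
Log2 difference of each member, TEBs minus stroma and ducts minus stroma, under 6 scalings of the arrays, with lines joining the values of 1 member. The lines rise and fall largely together around 0, with some changes of order, such as that of let-7a and let-7f after quantile normalization and in the value table; let-7g stays below 0 in all 6 settings for TEBs minus stroma, from -0.57 to -0.09, and rises above 0 for ducts minus stroma without scaling, to 0.15.

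A factor that multiplies a whole array leaves the members' standing to each other unchanged, which quantile normalization and the authors' value table do not. The log2 signal of each was therefore also taken relative to the mean of the 9 members on the same array. On that scale let-7g stood at 0.07, 0.16 and -0.01 in stroma, -0.28 and -0.16 in ducts and -0.44, -0.24 and -0.24 in TEBs, again with every epithelial array below stroma. let-7f stood at 0.96, 1.05 and 1.16 in stroma, 0.86 and 0.79 in ducts and 0.87, 0.83 and 0.88 in TEBs, also without overlap. let-7c stood higher in epithelium on this scale, with 1.58, 1.62 and 1.67 in stroma, 1.89 and 1.81 in ducts and 1.80, 1.76 and 1.81 in TEBs. let-7i stood at 0.26, 0.20 and 0.08 in stroma, 0.53 and 0.46 in ducts and 0.22, 0.49 and 0.53 in TEBs, where TEB 1 alone fell within the stroma range. The relative values of the 9 members on an array cancel by construction, so a fall of some raises the others. On the scaled signals let-7c differed by only 0.01 between the 2 epithelial tissues together and stroma (exact permutation p = 0.804).

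Of the members, only let-7g between TEBs and stroma was called on the relative scale. It was lower in TEBs, at -0.38 (SE 0.10, limma adjusted p = 0.0192), 1 of 9 members, where 36.5% of the tested miRNAs were called lower and 26.3% higher than in stroma. The call was missed narrowly without stroma 1 (-0.38, limma adjusted p = 0.052) and without stroma 2 (-0.34, limma adjusted p = 0.0653), and without TEB 1, 2 members were called. In the authors' value table let-7g had -0.34 (limma adjusted p = 0.036), while let-7f had -0.04 and let-7e turned from 0.13 to -0.09. In the same comparison let-7f had -0.20 (SE 0.09, limma adjusted p = 0.0843), let-7c 0.17 (SE 0.08, limma adjusted p = 0.1) and let-7i 0.24 (SE 0.11, limma adjusted p = 0.113). Between ducts and stroma 0 of 9 passed in limma, beside 15.6% of miRNAs called higher and 7.78% lower, although 4 members had an unadjusted p under 0.05. They were let-7i at 0.32 (SE 0.13), let-7g at -0.29 (SE 0.11), let-7f at -0.24 (SE 0.10) and let-7c at 0.23 (SE 0.09), with limma adjusted p-values of 0.120 to 0.135. Between TEBs and ducts 0 of 9 passed in limma, beside 13.2% called higher and 9.58% lower, and the single unadjusted p under 0.05 belonged to miR-98 at 0.49 (SE 0.17, limma adjusted p = 0.0665).

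The 2 epithelial tissues were also set together against stroma, member by member, in two-sided exact permutation tests of 5 arrays against 3, which cannot go below 0.0179. Relative to the family mean, let-7g (-0.35), let-7f (-0.21) and let-7c (0.19) reached that smallest exact p of 0.0179, let-7i (0.27) had p = 0.0536 and let-7e (0.13) p = 0.0893. The remaining 4 members had p-values of 0.143 to 0.911. With the main scaling, let-7g, let-7f, let-7d and let-7a reached 0.0179 and the other 5 had p-values of 0.321 to 0.804. These p-values are not adjusted for the 9 members and 2 scales. The test was not run over all tested miRNAs, so the counts have no background share beside them. In limma, 44.3% of the 167 tested miRNAs were called lower in TEBs than in stroma on the scaled signals and 36.5% on the relative scale. The counts are therefore no result about the family. Relative values of a single array are also bound to each other, so these tests are not independent. Tests of TEBs against ducts or of single tissues against stroma cannot go below 0.1.

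**Figure D4:**
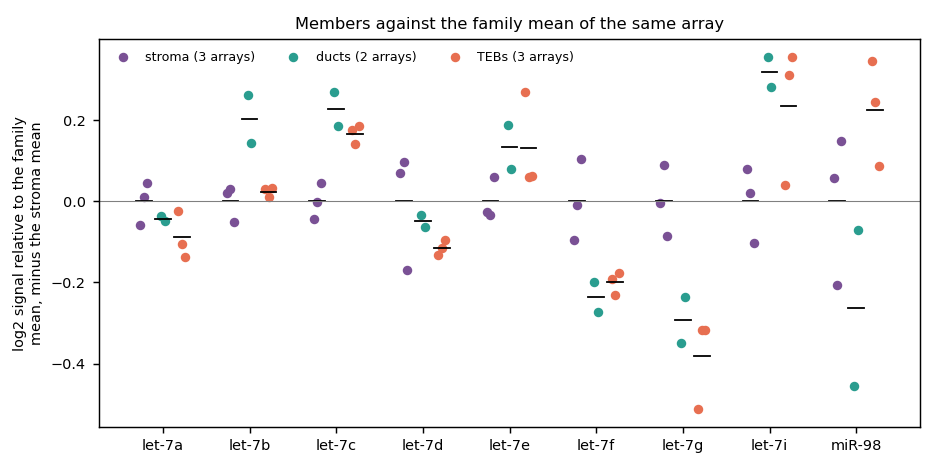
Log2 signal of each member relative to the mean of the 9 members on the same array, less the stroma mean of that value, for 3 stroma, 2 duct and 3 TEB arrays, with a bar at each tissue mean. The duct and TEB points of let-7g and let-7f lie below their stroma points and those of let-7c above, while those of let-7a, let-7b, let-7d, let-7i and miR-98 overlap. Those of let-7e clear stroma by a hair, with TEB 2 at -1.0333 and stroma 3 at -1.0335 before the stroma mean is taken off. The share of all miRNAs separated in this way was not computed.

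Ratios of pairs of members need no reference mean. Of the 36 pairs, 16 (44.4%) had log2 ratios that did not overlap between the 5 epithelial and the 3 stroma arrays, beside 39.2% of the 5778 pairs among the miRNAs detected on all arrays, so the number of separated pairs is near the background. Within the 16, let-7g was the member lower in epithelium in 6 pairs and let-7f in 5, and neither was the higher one in any. let-7c was the higher one in 4 pairs and let-7b, let-7e and let-7i in 3 each, and none of these 4 was the lower one in any. let-7d was lower in 3 and higher in 1, let-7a lower in 2 and higher in 2, and no pair with miR-98 separated. The pairs of a member share its values, so these counts are not independent. No such count was made for the other miRNAs, so they describe the pairs and are no result about single members.

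The pair that parted most was let-7g and let-7i, which share the change G12U and U18C from let-7a and differ from each other at positions 17 and 19 alone. The ratio of let-7g to let-7i signal was 0.878, 0.976 and 0.941 on the stroma arrays, 0.571 and 0.651 on the duct arrays and 0.634, 0.602 and 0.584 on the TEB arrays. The duct and TEB arrays overlapped and lay below all of stroma, with a log2 difference of -0.61. For let-7c over let-7g the ratios were 2.85, 2.75 and 3.21 in stroma, 4.50 and 3.92 in ducts and 4.71, 4.02 and 4.15 in TEBs, a log2 difference of 0.54. let-7f over let-7i gave 1.63, 1.80 and 2.13 in stroma, 1.25 and 1.26 in ducts and 1.57, 1.26 and 1.27 in TEBs, a log2 difference of -0.48, with TEB 1 near the stroma range. Such a ratio shows unequal change and not which of the 2 changed, and a ratio of signals from different probes is not a ratio of molecules.

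Closeness in sequence and in pattern were set side by side. Of the 4 pairs that differ by 1 base, 3 were separated between epithelium and stroma, and of the 10 that differ by 2 bases, 4 were. At 3, 4, 5 and 6 bases it was 4 of 11, 4 of 9, 0 of 1 and 1 of 1. Beside 39.2% of all pairs of miRNAs detected on all arrays, no trend with sequence is drawn. let-7a and let-7f parted only narrowly, with a highest log2 ratio of 0.171 in stroma and a lowest of 0.174 in epithelium. Over the 8 arrays, let-7a and let-7f had log2 scaled signals correlated with r = 0.937 and let-7d and let-7g with r = 0.934, while let-7i had r = -0.365 with the family mean. let-7b was closest to let-7d (r = 0.609), let-7c to let-7e (r = 0.601), let-7e to let-7a (r = 0.627), miR-98 to let-7f (r = 0.373) and let-7i to let-7b (r = 0.138). These are descriptions over 8 arrays that share 1 slide and the tissue differences. The miRNAs outside the family with the most similar pattern, out of 158, were miR-362-3p (r = 0.953), miR-500 (r = 0.931), miR-130a (r = 0.924), miR-101a (r = 0.922) and miR-365 (r = 0.916).

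The slide had 2 rows, each with all 3 tissues, and the let-7g gap was present in both. In row 1 let-7g differed by -0.55 between TEBs and stroma and by -0.51 between ducts and stroma, and in row 2 by -0.57 and -0.39. let-7f differed between TEBs and stroma by -0.25 in row 1 and -0.47 in row 2, let-7d by -0.33 and -0.31, and let-7a by -0.14 and -0.42. Each row held 1 or 2 arrays of a tissue, so these values have no test. Relative to the family mean the let-7g difference between TEBs and stroma was -0.41 in row 1 and -0.32 in row 2.

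Markers of some other cell types were also lower in the epithelial tissues than in stroma. The summed scaled signal of the 2 endothelial markers, carried by miR-126-3p since miR-126-5p was not detected on any array, was 2756.7 to 3847.0 units in stroma, 1906.5 to 2051.3 in ducts and 1312.3 to 1645.7 in TEBs. The 4 fat-linked miRNAs (miR-378, miR-193, miR-193b and miR-365), all detected on every array, summed to 1577.3 to 2000.4 units in stroma, 653.8 to 804.1 in ducts and 714.6 to 910.6 in TEBs. The 4 white blood cell markers, of which miR-142-5p and miR-150 were not detected on any array, summed to 558.6 to 679.1 units in stroma, 356.5 to 367.4 in ducts and 295.4 to 449.5 in TEBs. The 2 red blood cell markers summed to 1988.3 to 3577.4 units in stroma, 2590.6 to 3276.0 in ducts and 1370.4 to 1901.6 in TEBs. The 4 muscle markers summed to between 1.21 and 169.9 units on any array, with miR-206 not detected anywhere. The part of these cell types in the let-7g, let-7f, let-7d and let-7a differences was not tested.

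Each let-7 hairpin also yields an opposite strand, marked with a star, which is usually degraded when the guide strand is loaded. The array held 7 of these, let-7a*, let-7b*, let-7c-1*, let-7d*, let-7f*, let-7g* and let-7i*, and only let-7b* and let-7d* were detected widely enough to be tested. Deposited signals of let-7b* were 46.8, 65.7 and 39.3 units in stroma, 89.2 and 49.9 in ducts and 13.3, 21.6 and 27.2 in TEBs, with TEB 1 not flagged as detected. let-7d* gave 50.4, 75.2 and 40.8 units in stroma, 100.6 and 53.8 in ducts and 7.2, 19.0 and 24.3 in TEBs, again with TEB 1 not detected. On every TEB array both lay below all stroma and duct arrays.

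On the scaled log2 signals, TEBs less stroma, let-7b* had a difference of -1.56 (SE 0.35, limma adjusted p = 0.00913) and let-7d* of -2.09 (SE 0.51, limma adjusted p = 0.0121). Both entered the test only through stroma and ducts, where they were detected on every array, and both were detected on 2 of 3 TEB arrays. The detection filter thus favours a lower value in TEBs, and no direction is drawn from these p-values. Without the filter let-7b* was still called against stroma and let-7d* was not. The sizes depend on how signals near background are treated: adding 16 units gave -1.05 and -1.32, and normexp with an offset of 50 gave -0.75 and -0.87. Against ducts let-7b* had -1.38 (SE 0.39, limma adjusted p = 0.0466) and let-7d* had -1.94 (SE 0.57, limma adjusted p = 0.0505), with the same limit. The let-7b* call against ducts stood near its threshold: it was lost without stroma 1 (adjusted p = 0.0685), stroma 3 (0.0645), duct 1 (0.118), duct 2 (0.0572) or TEB 2 (0.0958) in the limma fit, and its adjusted p over all alternatives ran from 0.0192 to 0.842. Ducts and stroma had differences of -0.18 for let-7b* and -0.16 for let-7d*, with limma adjusted p-values of 0.825 and 0.894.

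The guide strands let-7b and let-7d had differences of -0.20 and -0.09 between TEBs and ducts and were not called there. On the log2 scale the ratio of let-7b* to let-7b on an array was -1.18 in TEBs less ducts and -1.40 in TEBs less stroma, and the ratio of let-7d* to let-7d -1.85 and -1.79, with no overlap of TEBs with either tissue. let-7f* was detected on stroma 2, stroma 3 and duct 2 and was not flagged as detected on any TEB array. The exact permutation p was 0.1 for each TEB and stroma comparison and 0.2 for each TEB and duct comparison, and 0.1 is the smallest these numbers of arrays allow. The ratios of let-7b* and let-7d* use the values that passed the detection filter only through stroma and ducts. No direction is drawn from the star ratios or from their p-values. let-7g* was detected on duct 1 alone and let-7a*, let-7c-1* and let-7i* on no array. The star signals lay near the detection edge, where the deposited error in TEBs was 14.0% to 19.7% for let-7b* and 15.48% to 35.73% for let-7d*. Negative control probes read 51.7, 52.3 and 70.7 units in stroma, 130.9 and 49.9 in ducts and 47.6, 36.5 and 59.5 in TEBs, and duct 1, the highest, also had the highest deposited signals of let-7b* and let-7d*; its part in them was not tested.

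**Figure D5:**
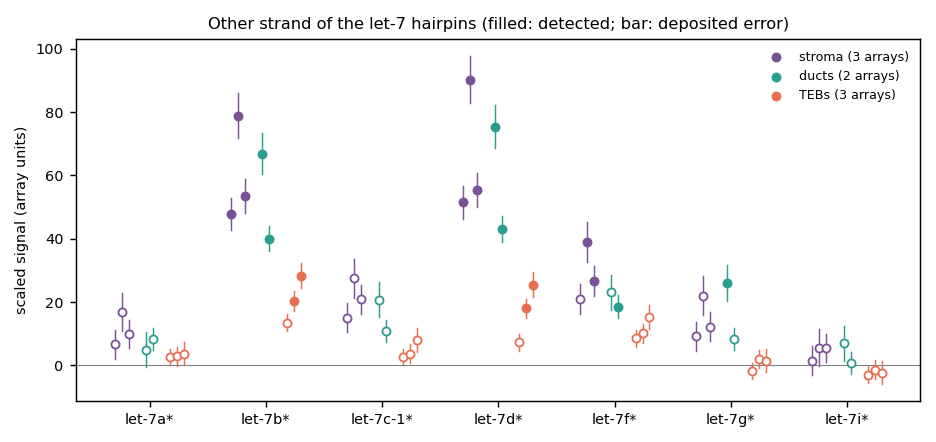
Scaled signal of the 7 star strands of let-7 hairpins on each array, in array units, with filled points where the miRNA was flagged as detected, open points where it was not, and bars of plus and minus the deposited error of the signal. The TEB points of let-7b* and let-7d* lie below all stroma and duct points, and no TEB array detected the other 5. let-7b* and let-7d* passed the detection filter only through stroma and ducts, so no direction is drawn.

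Several let-7 hairpins share a primary transcript with other miRNAs, which gives another reading of the same loci. The list held miR-100 and miR-125b-5p beside let-7a-2, miR-99a and miR-125b-5p beside let-7c-1, and miR-99b and miR-125a-5p beside let-7e. Mir100 lies 5211 bases from let-7a-2, Mir99a 656 bases from let-7c-1 and Mir125a 367 bases from let-7e, all on the same strand. Of these 5, only miR-100 was called on the scaled signals. It read 158.6, 145.2 and 148.4 units in stroma, 148.7 and 142.0 in ducts and 104.6, 114.4 and 111.9 in TEBs, so that all TEB arrays lay below the rest. It was lower in TEBs than in ducts, at -0.40 (SE 0.09, limma adjusted p = 0.0242), and than in stroma, at -0.45 (SE 0.08, limma adjusted p = 0.00395). Under the 75th percentile of all miRNAs its difference between TEBs and ducts was 0.15, and under the median of the detected miRNAs its difference between TEBs and stroma was 0.03, so both signs depend on the scaling. Without duct 1, duct 2 or TEB 2 the call between TEBs and ducts was lost, with limma adjusted p-values of 0.0544, 0.0637 and 0.0665.

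Relative to the let-7 family mean, some partners were called. Over all tested miRNAs, 26.3% were called higher and 36.5% lower in TEBs than in stroma, and 13.2% and 9.58% in TEBs than in ducts. In ducts, 15.6% were called higher and 7.78% lower than in stroma. The partners' calls on this scale were not repeated under other settings or without single arrays, and those of miR-100 stood near the threshold. miR-100 was lower in TEBs than in ducts (-0.38, SE 0.10, limma adjusted p = 0.0443) and than in stroma (-0.26, SE 0.09, limma adjusted p = 0.0455). miR-99a was higher in TEBs than in stroma (0.48, SE 0.11, limma adjusted p = 0.0127). miR-99b was dim, at 9.60 to 19.9 units, and was detected on all 3 TEB arrays but on only 1 stroma and 1 duct array, so that it entered the test through TEBs alone and no direction is drawn for it. miR-125b-5p was higher in ducts than in stroma (0.46, SE 0.12, limma adjusted p = 0.0356), and miR-125a-5p was called in none of the 3 comparisons. The star strands of these miRNAs on the array (miR-99b*, miR-125a-3p, miR-125b* and miR-125b-3p) were undetected, apart from miR-125a-3p on TEB 1.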

How the data were processed

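The authors hybridised total RNA of 8 micro-dissected samples to Agilent single-colour mouse miRNA arrays and deposited, from Agilent Feature Extraction 9.5.3 (named in the submitters' processing notes), each miRNA's background-subtracted total signal intensity, its error and a detection flag, with no scaling between arrays. The authors also deposited a value table of log2 signals, here an alternative, whose 312 higher sorted values are identical on every array; its normalization and background correction are not given in the sources used here.

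Groups follow the tissue in the labels. Controls and 39 non-mouse probes were left out. Scaling used the 75th percentile of an array over 108 miRNAs, those which all arrays detected (factors 0.7499 to 1.36), because the percentile of all 611 fell between 11.5 and 29.9 units, at the edge of detection. Scaled signals under 1 were set to 1 before log2, a floor that no signal of a member, of let-7b* or of let-7d* reached. limma 3.58.1 (R 4.3.3; lmFit, contrasts.fit, eBayes) was fitted to all 8 arrays and 167 miRNAs, with Benjamini-Hochberg adjustment within each comparison at 0.05, and repeated after subtracting each array's mean over the 9 members. The scripts were tested on simulated data.

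The miRNAs named are the members, their star strands, miRNAs of shared transcripts, the 5 most alike by Pearson r with the family mean, and each member's closest member. Members, lists and rules were chosen with earlier results of these data known. Alternatives were other scalings, adding 16 units, other detection filters, normexp (offset of 50), a replicate block, slide row, an intensity trend, fits on 2 tissues, a minimum change of 2-fold, the methods' t-test and leaving out each array; a family mean without miR-98 was added after seeing the data. Sequences and positions are from RefSeq tables (GRCm38.p6), where all 9 members matched. Files without counts give no depth, and precision is the spread between arrays.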

Additional observations from a re-analysis of the deposited data

How the results depend on the processing

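Detection of all 9 members held under every alternative that bears on it and without each array (9 to 9). Between ducts and stroma, 2 members lower with the main setting became 0 with the 75th percentile of all miRNAs, 0 without the detection filter, 0 with the slide row as a covariate, 0 at a minimum change of 2-fold, 0 in the methods' t-test after Benjamini-Hochberg adjustment and 1 in a fit on only the 2 tissues, and turned to higher with quantile normalization (1), no scaling (4), the median of the detected miRNAs (3) and the authors' value table (2); without single arrays the count ran from 0 to 2, with 1 higher without TEB 1. Between TEBs and ducts, 0 became 1 without scaling, without the detection filter, with an intensity trend and in the value table, and 2 in the unadjusted t-test of the methods; without single arrays it ran from 0 to 1. Between TEBs and stroma, 4 lower became 0 with the 75th percentile of all miRNAs, 0 without scaling, 0 at 2-fold, 2 (1 higher, 1 lower) with quantile normalization and 4 higher with the median; without single arrays it ran from 1 to 3.

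Relative to the family mean, the count between ducts and stroma rose from 0 to 1 with normexp, 5 without the detection filter, 4 with an intensity trend and 4 in the unadjusted t-test (0 to 0 without single arrays). Between TEBs and ducts it rose from 0 to 1 among miRNAs detected on all arrays, 1 with an intensity trend and 2 in the unadjusted t-test (0 to 0 without single arrays). Between TEBs and stroma it went from 1 to 3 with normexp (2 higher), 3 without the filter, 3 with an intensity trend, 3 in the unadjusted t-test, 2 after its adjustment, 2 in the value table and 0 at 2-fold; without single arrays it ran from 0 (without stroma 1 or stroma 2) to 2 (without TEB 1). let-7g kept its sign in 21 of 21 alternatives there (-0.42 to -0.32), and with the family mean taken without miR-98 it was -0.35.

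Single differences that passed the test in the main setting or in the alternative turned as follows. Between TEBs and stroma, let-7a was 0.12 with the 75th percentile of all miRNAs and 0.21 with the median, let-7b 0.32, let-7c 0.46, let-7e 0.43, miR-125a-5p 0.43 and miR-100 0.034 with the median, let-7d 0.090, 0.059, 0.18 and 0.0034 with the 75th percentile of all, quantile, median and value table, let-7f 0.0045, 0.11 and 0.096 with the first 3 of these, and miR-98 -0.20 and miR-99b -0.29 with normexp. Between ducts and stroma, let-7e was 0.58, let-7f 0.21 and let-7g 0.15 without scaling and let-7f 0.13 with quantile normalization, and between TEBs and ducts miR-100 was 0.15 with the 75th percentile of all. Members' differences that passed in neither setting changed sign in a further 62 cases on the scaled signals, among them 7 of the 8 let-7 members between TEBs and ducts with the 75th percentile of all (0.35 for let-7b to 0.53 for let-7e), and in 18 cases relative to the family mean. Apart from what scaling itself shifts, the causes were not tested.

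With the replicate number as a block, 1 member differed between ducts and stroma against 2 without it, and the other 5 counts of members were unchanged or within 1.5 times. The numbers share only a label: arrays of the same number had deviations correlated at a mean of -0.104 over 7 pairs, and of different numbers 0.0518 over 14 pairs.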
